A study of Mus musculus with 20 samples.

Results

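The collagens are the structural proteins of the dermis, of the epidermal basement membrane and of the walls of vessels, nerves and hair follicles. All genes whose symbol is Col, a number, a and a number were taken as members, by symbol alone and not by any measured value. Each was represented by the array feature (a probe set) with the highest mean over all arrays among features that carry exactly 1 symbol. This gave 44 collagen genes of 22180 genes tested: 11 fibrillar collagens, 10 basement membrane collagens and 23 others.

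A collagen is a trimer of alpha chains, each encoded by its own gene. The fibrillar chains are made as procollagens, folded in the endoplasmic reticulum, trimmed outside the cell and crosslinked into fibrils, and type I with some type III makes up most of the dermis. Type IV chains form the sheet of every basement membrane, type VII anchors the epidermal basement membrane to the dermis, and type XVII is a transmembrane protein of basal keratinocytes. Fibril-associated collagens such as types XII and XIV sit on the surface of fibrils.

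Abdominal skin of C57/B6 mice was profiled at 9 weeks of age on 20 arrays, 1 mouse to an array. The groups were CD-vehicle and CD-IMQ on control chow (CD), and HFD-vehicle and HFD-IMQ on a high fat diet (HFD), with 5 mice in each. Every mouse was shaved. IMQ groups received 62.5 mg of Aldara cream with 5% imiquimod on each of 5 days, vehicle groups the vehicle, and the tissue was collected 24 h after the final dose. Imiquimod is a Toll-like receptor 7 agonist whose cream produces psoriasis-like inflammation in mice. The samples are whole skin, so in every result below fewer cells of a type and less RNA per cell cannot be told apart.

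Values are log2 intensities after robust multi-array averaging (RMA), which the submitters deposited, and a level is a group mean with its standard deviation (n = 5). A change is a difference of group means in log2 units from a limma fit over all 20 arrays, given with its standard error. The threshold for calling a change was 0.05 after Benjamini-Hochberg adjustment, which covered all 22180 genes. Array medians over the tested genes ran from 3.54 to 3.65, and a group mean at or below 3.65 is called near background here. Of the 44 collagens 14 were near background in all 4 groups and 24 were above it in all 4. The signal of 1 array weighed most in some groups: HFD-vehicle 3 made up 42.8% of its group's squared distance from the group mean when all genes were used. The share of HFD-IMQ 4 was 30.01%. For the collagens alone the shares were 42.96% for HFD-vehicle 3, 35.5% for CD-IMQ 4 and 34.18% for HFD-IMQ 4. Of the fibroblast markers Pdgfra read 8.06 and Vim 10.61 in CD-vehicle, while Twist2 was near background in all 4 groups (2.89 to 3.51). Skeletal muscle markers were also high, with a list mean of 7.90 in CD-vehicle.

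The stretches upstream of the start sites of 3 fibrillar genes called lower with IMQ in HFD-fed mice are shown because they differ in sequence. They come from RefSeq, build GRCm38.p6, all on the + strand, and run 5′ to 3′ up to the base before the annotated start. The Col11a1 stretch stops 61 bases earlier, where another annotated transcript of that gene begins. Capitals mark 3 promoter motifs on either strand: the CCAAT box, the GC box with the letters GGGCGG, and the TATA box with the letters TATAAA. No marked match overlaps another.
Col1a2, chr6:4505368-4505617: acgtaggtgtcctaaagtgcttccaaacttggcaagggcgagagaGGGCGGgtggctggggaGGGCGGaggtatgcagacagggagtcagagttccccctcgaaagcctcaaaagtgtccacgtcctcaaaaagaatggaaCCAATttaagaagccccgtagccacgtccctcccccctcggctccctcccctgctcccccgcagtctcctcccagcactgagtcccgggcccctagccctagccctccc
Col3a1, chr1:45311288-45311537: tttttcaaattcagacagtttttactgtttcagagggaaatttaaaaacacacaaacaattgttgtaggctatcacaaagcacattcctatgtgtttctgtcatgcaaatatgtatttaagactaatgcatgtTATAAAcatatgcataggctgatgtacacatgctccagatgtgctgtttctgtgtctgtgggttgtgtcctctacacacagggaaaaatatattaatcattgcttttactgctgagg
Col11a1, chr3:114030290-114030478: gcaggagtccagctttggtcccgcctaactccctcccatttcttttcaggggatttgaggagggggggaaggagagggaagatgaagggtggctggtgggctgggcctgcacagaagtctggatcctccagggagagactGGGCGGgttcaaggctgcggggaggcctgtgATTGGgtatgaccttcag
Col1a2 held a GC box beginning 205 and another 188 bases before its start, and a CCAAT box at 109. Col3a1 held neither kind, but a TATA box at 117. Col11a1 held a GC box at 110 and a CCAAT box on the opposite strand at 79. RefSeq promoter stretches were at hand for 35 of the 44 members, and 3 of the 35 had more than 1 start, which gave 38 stretches of 250 bases. The GC box occurred in 57.9% of these 38 and in 32.7% of all 32851 promoters, the CCAAT box in 34.2% and 33.8%, and the TATA box in 13.2% and 12.4%. These are letters in a window, not measured binding sites.

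Col4a1 and Col4a2, which encode both chains of the common type IV collagen, start head to head on chromosome 8. By the starts RefSeq gives them in build GRCm38.p6, Col4a2 runs on the + strand from one end of chr8:11312805-11312826 and Col4a1 on the − strand from the other, so the first 22 bases of each gene overlap. These bases are transcribed and are not printed here.

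A set of collagen transcripts fell in IMQ-treated skin, with members in the fibrillar, basement membrane, beaded filament and fibril-associated classes. Averaged over both diets 16 of the 44 collagens fell and none passed the test upward. The 16 were the fibrillar Col1a1, Col1a2, Col3a1, Col5a1, Col5a2 and Col11a1, the basement membrane genes Col4a1, Col4a2, Col4a4, Col4a5 and Col15a1, and Col6a1, Col6a2, Col6a6, Col12a1 and Col14a1. Over all genes 7.06% were lower and 5.48% higher in this comparison, against 36.4% of collagens lower. The median change was -0.13 over the 44 collagens, -0.51 over the fibrillar, -0.30 over the basement membrane and -0.04 over the other collagens, beside 0.01 over all genes. Among the others the beaded filament type VI genes had a median of -0.35 with 3 of 6 lower. The classes were not tested against each other. The average over diets was added after the data had been seen. At an unadjusted p below 0.05, 21 collagens were lower and 3 higher, against 23.7% of all genes in either direction. Of the 16 calls 13 had also passed in at least 1 diet alone, and 13 of the 16 passed in all left-out and alternative fits. The exceptions were Col4a4 and Col6a6, lost in 12 of 20 fits without 1 array, and Col6a2 (adjusted p = 0.0763 after quantile normalization). Col4a4 is near background in all groups.

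Within CD-fed mice 8 of 44 collagens fell with IMQ and Col9a2 rose. In this comparison 7.02% of all genes were lower and 3.91% higher. The lower genes were Col1a1, Col1a2, Col5a2, Col4a1, Col4a2, Col15a1, Col6a1 and Col14a1. The 5 IMQ arrays lay entirely below the 5 vehicle arrays for 7 collagens, where 8.89% of all genes had groups that did not overlap in either direction. Without CD-IMQ 3 the count of collagens called lower was 5.

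Within HFD-fed mice 9 of 44 fell, with 2.24% of all genes lower and 3.65% higher. They were Col1a2, Col3a1, Col5a1, Col11a1, Col4a1, Col4a2, Col4a5, Col12a1 and Col14a1. No collagen passed upward in the limma test. At an unadjusted p below 0.05, 1 was higher and 17 lower, against 16.7% of all genes in either direction. Groups lay apart downward for 8 collagens, against 6.06% of all genes in either direction. Col1a2, Col4a1, Col4a2 and Col14a1 passed in both diets. The 2 comparisons have no array in common, but they share 1 estimate of the spread.

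**Figure D1:**
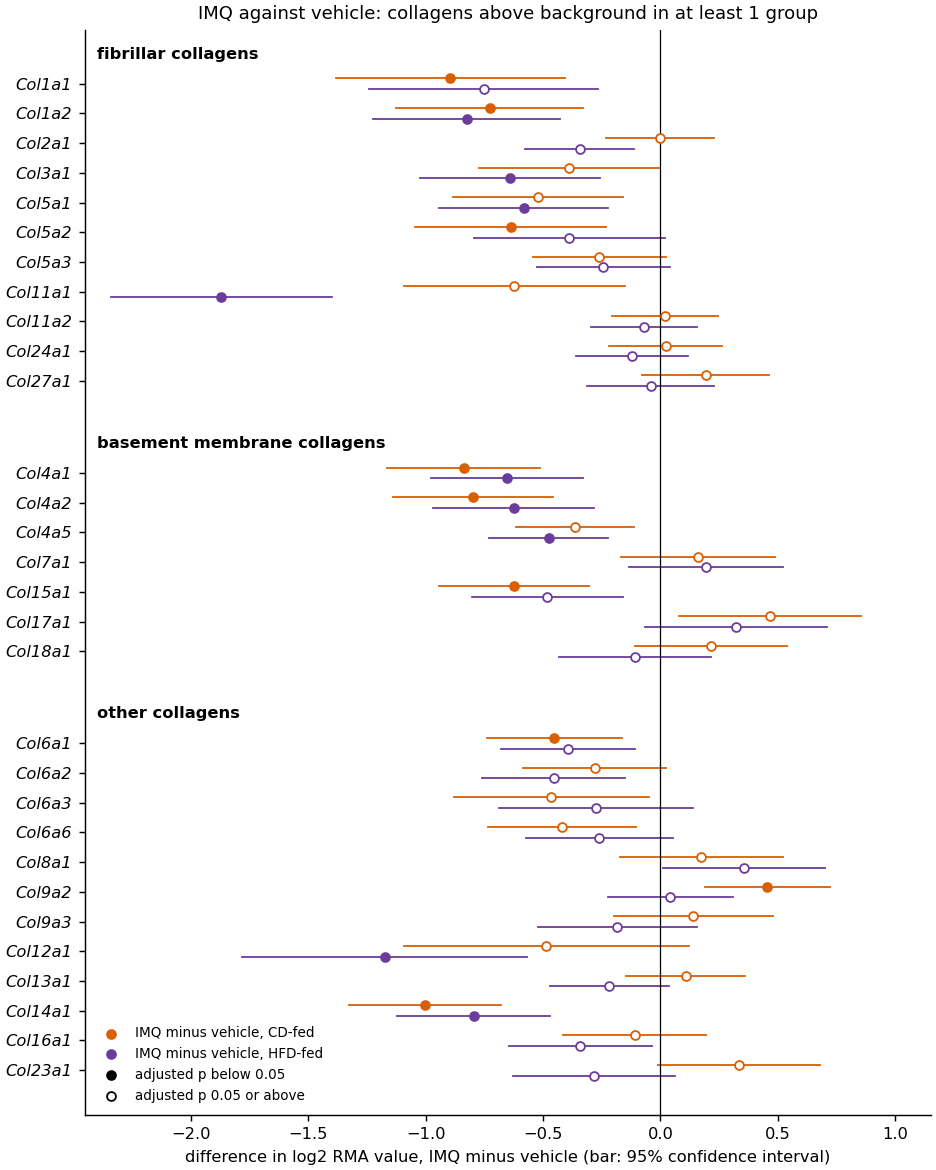
Difference in log2 RMA value between IMQ and vehicle skin (x axis) for the 30 collagens above background in at least 1 group, in CD-fed (orange) and HFD-fed (purple) mice, with 95% confidence intervals. Filled points passed the test, and the largest difference is that of Col11a1 in HFD-fed mice (-1.87).

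Type I collagen, the main protein of dermal fibrils, is a trimer of chains from Col1a1 and Col1a2. Col1a1 read 11.26, 11.11, 10.83, 10.01 and 10.85 in CD-vehicle and 10.34, 9.85, 9.25, 10.10 and 10.06 in CD-IMQ. In HFD-vehicle it read 10.88, 10.93, 10.69, 10.87 and 11.26, and in HFD-IMQ 10.50, 10.60, 10.14, 9.34 and 10.29. The groups lay apart in HFD-fed mice, and in CD-fed mice CD-vehicle 4 alone (10.01) reached into the IMQ range. The change of Col1a1 was -0.89 ± 0.24 in CD-fed mice (adjusted p = 0.0152), a 1.86-fold difference. In HFD-fed mice it was -0.75 ± 0.24 (adjusted p = 0.0631), which missed the threshold. The CD call was lost without CD-IMQ 3 (adjusted p = 0.0525), and quantile normalization, the filter on dim genes and the replicate block brought the HFD value below the threshold (adjusted p = 0.0277 to 0.0427).

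Col1a2 followed the same order. Its values were 10.83, 10.56, 10.47, 9.75 and 10.46 in CD-vehicle and 10.04, 9.52, 9.63, 9.58 and 9.68 in CD-IMQ. They were 10.46, 10.53, 10.37, 10.55 and 10.89 in HFD-vehicle and 10.07, 10.20, 9.61, 9.06 and 9.74 in HFD-IMQ. Again CD-vehicle 4 was the low array of the control group, and in HFD-fed mice the groups did not overlap. Col1a2 fell by 0.73 ± 0.19 in CD-fed (adjusted p = 0.0158) and by 0.82 ± 0.19 in HFD-fed mice (adjusted p = 0.00923). Without CD-vehicle 1 the CD call was lost (adjusted p = 0.0523).

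Col3a1 encodes type III collagen, which accompanies type I in skin fibrils. In CD-vehicle the values were 10.87, 10.64, 10.51, 10.004 and 10.54, and in CD-IMQ 10.40, 10.03, 10.15, 9.99 and 10.05. In HFD-vehicle they were 10.66, 10.80, 10.51, 10.86 and 11.29, and in HFD-IMQ 10.53, 10.53, 10.18, 9.45 and 10.21. Groups overlapped on both diets. The change was -0.39 ± 0.19 in CD-fed mice (adjusted p = 0.206) and -0.64 ± 0.19 in HFD-fed mice (adjusted p = 0.0416). The latter call was lost in 9 of 20 fits without 1 array, with an adjusted p of up to 0.124.

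Type V chains, which join type I in fibrils and limit their width, read between 5.33 and 7.24 as group means. Col5a2 fell in CD-fed mice by 0.64 ± 0.20 (adjusted p = 0.0384) and changed by -0.39 ± 0.20 in HFD-fed mice (adjusted p = 0.334). Col5a1 stood the other way round, with -0.52 ± 0.17 (adjusted p = 0.0570) and -0.58 ± 0.17 (adjusted p = 0.0498). Both calls were close to the threshold: Col5a2 was lost in 7 of 20 fits without 1 array and Col5a1 in 15 of 20. The interaction term, the change in HFD-fed minus that in CD-fed mice, was 0.25 ± 0.28 for Col5a2 and -0.06 ± 0.25 for Col5a1, and neither passed (adjusted p = 0.713 and 0.935). Col5a3 changed by -0.26 ± 0.14 and -0.24 ± 0.14 and was not called.

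Col11a1 encodes a type XI chain, a minor fibrillar collagen best known from cartilage. It had the largest change of the family. Its values were 4.55, 4.596, 2.95, 3.43 and 3.75 in CD-vehicle and 3.49, 3.31, 2.94, 3.25 and 3.16 in CD-IMQ. HFD-vehicle arrays read 4.94, 5.17, 4.67, 5.23 and 5.11, and HFD-IMQ arrays 3.001, 3.30, 3.35, 3.25 and 2.88. All 5 HFD-vehicle arrays were above every other array of the study, the CD-vehicle arrays were spread widely, and both IMQ groups were near background. Col11a1 fell by 1.87 ± 0.23 with IMQ in HFD-fed mice (adjusted p = 9.64e-06, 3.66-fold). In CD-fed mice the change was -0.62 ± 0.23 (adjusted p = 0.0825). The IMQ group means are near background, so these sizes are uncertain and can understate the difference. The interaction was -1.25 ± 0.32 (adjusted p = 0.0715) and did not pass. It passed with array weights (adjusted p = 0.0407), with the filter on dim genes (adjusted p = 0.0495) and without CD-vehicle 1 or CD-vehicle 2.

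The remaining fibrillar genes gave little. Col2a1, the main collagen of cartilage, changed by -0.34 ± 0.11 in HFD-fed mice (adjusted p = 0.0777). Col11a2, Col24a1 and Col27a1 changed by between -0.12 and 0.19 and were not called.

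**Figure D2:**
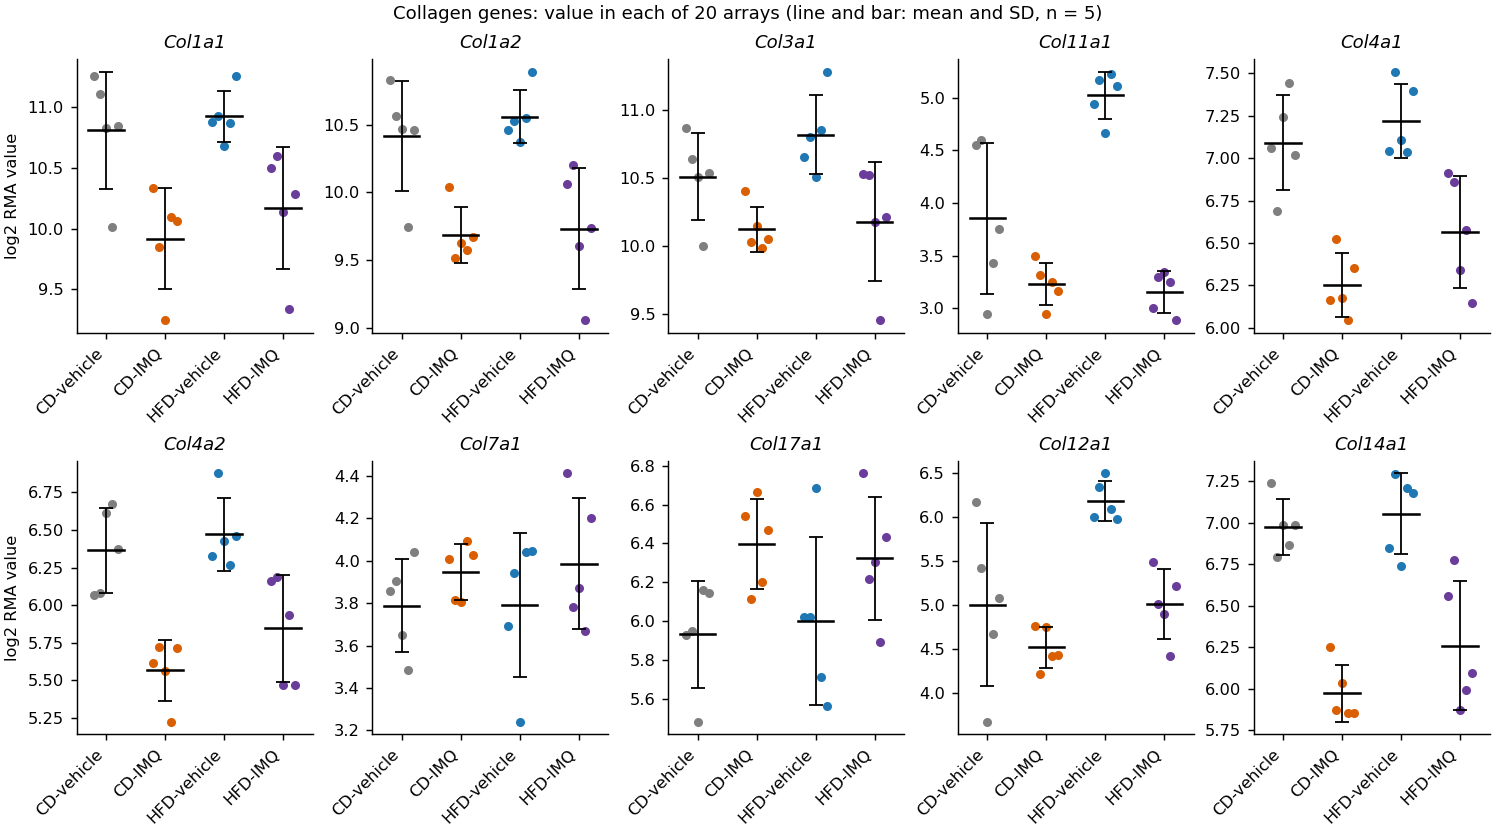
Log2 RMA value (y axis) of 10 collagens in each array of the 4 groups (x axis), with group means and standard deviations (n = 5) as lines and bars. Each panel has its own scale, and levels of different genes are not comparable. All HFD-vehicle values of Col11a1 lie above every other array.

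Among basement membrane collagens the type IV pair with the common start moved alike. Col4a1 read 7.06, 6.69, 7.24, 7.44 and 7.02 in CD-vehicle and 6.17, 6.52, 6.18, 6.04 and 6.35 in CD-IMQ. It read 7.04, 7.51, 7.11, 7.04 and 7.40 in HFD-vehicle and 6.91, 6.86, 6.34, 6.58 and 6.14 in HFD-IMQ. On both diets every IMQ array was below every vehicle array. Col4a1 fell by 0.84 ± 0.16 in CD-fed (adjusted p = 0.00105) and by 0.65 ± 0.16 in HFD-fed mice (adjusted p = 0.0116), that is 1.79-fold and 1.57-fold.

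Col4a2 gave 6.07, 6.08, 6.62, 6.68 and 6.38 in CD-vehicle and 5.61, 5.72, 5.56, 5.22 and 5.72 in CD-IMQ. HFD-vehicle arrays gave 6.33, 6.88, 6.42, 6.27 and 6.46, and HFD-IMQ arrays 6.16, 6.19, 5.47, 5.93 and 5.47. Here too the groups did not overlap on either diet. The changes of Col4a2 were -0.80 ± 0.16 (adjusted p = 0.00247) and -0.63 ± 0.16 (adjusted p = 0.0230). The HFD call was lost without HFD-vehicle 2, HFD-IMQ 3 or HFD-IMQ 5 (adjusted p = 0.0776 to 0.0840). The interaction was 0.19 ± 0.22 for Col4a1 and 0.17 ± 0.23 for Col4a2 (adjusted p = 0.735 and 0.771).

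Of the other type IV chains Col4a5 fell in HFD-fed mice by 0.48 ± 0.12 (adjusted p = 0.0180), from 3.97 ± 0.19 to 3.497 ± 0.20, the second near background. Its change in CD-fed mice was -0.36 ± 0.12 (adjusted p = 0.0563), with groups that did not overlap. Col4a3, Col4a4 and Col4a6 were near background throughout. Col15a1, a proteoglycan collagen of vessel and muscle basement membranes, fell in CD-fed mice by 0.62 ± 0.15 (adjusted p = 0.0102) and changed by -0.48 ± 0.15 in HFD-fed mice (adjusted p = 0.0724). Of the endothelial markers 1 of 10 fell in CD-fed mice (Tek, -0.76 ± 0.19) and 1 of 10 rose in HFD-fed mice (Emcn, 0.87 ± 0.16). The list mean ran from 4.95 to 5.05 in CD-vehicle and from 4.86 to 5.05 in CD-IMQ. In HFD-fed mice 9 of the 10 endothelial changes were above 0, with a median of 0.32, and the list mean ran from 4.67 to 5.20 in HFD-vehicle and from 4.90 to 5.70 in HFD-IMQ, while Col4a1 and Col4a2 fell there.

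No fall was called for the epidermal junction genes Col17a1 and Col7a1, unlike for the type IV genes Col4a1, Col4a2 and Col4a5. Col17a1, made by basal keratinocytes, read 5.93, 5.95, 5.48, 6.16 and 6.14 in CD-vehicle and 6.54, 6.11, 6.66, 6.20 and 6.47 in CD-IMQ. It read 6.02, 6.02, 6.69, 5.71 and 5.56 in HFD-vehicle and 6.76, 6.22, 6.31, 5.89 and 6.44 in HFD-IMQ. The groups overlapped, and HFD-vehicle 3 (6.69) was the highest array of its group. The changes were 0.47 ± 0.19 (adjusted p = 0.121) and 0.32 ± 0.19 (adjusted p = 0.426), and the average over both diets was 0.39 ± 0.13 (adjusted p = 0.0537), just short of the threshold. That average passed with array weights (adjusted p = 0.0126), quantile normalization (0.0186), the filter on dim genes (0.0346) and a trended robust variance (0.0494). After quantile normalization Col17a1 passed upward in CD-fed mice (0.57, adjusted p = 0.0358). Of the basal keratinocyte markers Krt14 rose in both diets (1.95 ± 0.23 and 0.95 ± 0.23) and Krt15 fell (-1.01 ± 0.24 and -1.67 ± 0.24).

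Col7a1, the anchoring fibril collagen, read 3.86, 3.902, 3.65, 3.49 and 4.04 in CD-vehicle and 4.01, 3.81, 3.80, 4.09 and 4.02 in CD-IMQ. It read 3.69, 3.94, 3.24, 4.04 and 4.04 in HFD-vehicle and 4.41, 3.78, 3.87, 3.67 and 4.20 in HFD-IMQ. These values lie close to background and overlapped in both diets. The changes were 0.16 ± 0.16, with a 95% interval from -0.17 to 0.49, and 0.19 ± 0.16, with an interval from -0.13 to 0.52. Col18a1, a basement membrane collagen whose fragment is endostatin, changed by 0.22 ± 0.16 and -0.11 ± 0.16 and was not called either.

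Among the other collagens the fibril-associated Col14a1 gave the clearest fall. It read 7.24, 6.79, 6.99, 6.87 and 6.98 in CD-vehicle and 6.25, 5.87, 6.03, 5.85 and 5.86 in CD-IMQ. In HFD-vehicle the values were 6.85, 7.29, 6.74, 7.21 and 7.18, and in HFD-IMQ 6.56, 6.78, 5.87, 5.99 and 6.10. In CD-fed mice the groups lay far apart, and in HFD-fed mice only HFD-IMQ 2 (6.78) reached into the vehicle range. Col14a1 fell by 1.003 ± 0.16 (adjusted p = 0.000169, 2.004-fold) and by 0.80 ± 0.16 (adjusted p = 0.00219, 1.74-fold). Both calls held in every alternative and in every fit without 1 array.

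Col12a1, also fibril-associated, gave 6.17, 5.42, 3.67, 4.67 and 5.09 in CD-vehicle and 4.76, 4.22, 4.75, 4.42 and 4.43 in CD-IMQ. It gave 6.0, 6.35, 6.50, 6.09 and 5.98 in HFD-vehicle and 5.49, 5.02, 4.90, 4.42 and 5.21 in HFD-IMQ. The CD-vehicle arrays were spread most, from 3.67 to 6.17. Col12a1 fell in HFD-fed mice by 1.18 ± 0.29 (adjusted p = 0.0152), with no overlap, and changed by -0.49 ± 0.29 in CD-fed mice (adjusted p = 0.335). The interaction was -0.69 ± 0.41 (adjusted p = 0.432).

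Type VI collagen forms beaded filaments around cells. Col6a1 fell in CD-fed mice by 0.45 ± 0.14 (adjusted p = 0.0374), a call lost in 6 of 20 fits without 1 array and with the mean of all its features (adjusted p = 0.188). Its change in HFD-fed mice was -0.39 ± 0.14 (adjusted p = 0.111). Col6a2, Col6a3 and Col6a6 changed by between -0.26 and -0.46 in the 2 comparisons without passing. Col6a4 and Col6a5 were near background.

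The 1 collagen called upward was Col9a2, a fibril-associated chain of cartilage type IX collagen, in CD-fed mice (0.45 ± 0.13, adjusted p = 0.0237), from 5.22 ± 0.22 to 5.67 ± 0.26. Its change in HFD-fed mice was 0.04 ± 0.13, the interaction -0.41 ± 0.18 did not pass (adjusted p = 0.268), and the call was lost in 5 of 20 fits without 1 array. Of the 9 cartilage markers other than collagens none passed in CD-fed mice and Sox9 fell in HFD-fed mice, and the list mean lay between 2.63 and 3.06 in every array. The short-chain collagens Col8a1, Col8a2 and Col10a1 and the transmembrane Col13a1, Col23a1 and Col25a1 gave no call in any comparison of 2 groups. The same held for Col9a3 and Col16a1. The 14 genes near background throughout were Col4a3, Col4a4, Col4a6, Col6a4, Col6a5, Col8a2, Col9a1, Col10a1, Col19a1, Col20a1, Col22a1, Col25a1, Col26a1 and Col28a1, and their changes with IMQ ran from -0.48 (Col4a4, HFD-fed) to 0.18 (Col4a6, CD-fed).

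The high fat diet raised 2 collagens in vehicle-treated skin, Col11a1 and Col12a1. Over all genes 1.22% were higher and 0.956% lower. Col11a1 rose by 1.17 ± 0.23 (adjusted p = 0.00654, 2.25-fold) and its groups did not overlap, as was the case for 3.94% of all genes. Col12a1 rose by 1.18 ± 0.29 (adjusted p = 0.0348), with CD-vehicle 1 (6.17) inside the HFD range. The other changes ran from -0.21 (Col8a1) to 0.39 (Col18a1) and did not pass. At an unadjusted p below 0.05, 4 collagens were higher and none lower, against 14.7% of all genes in either direction. Both calls were lost when only the 10 vehicle arrays were fitted (adjusted p = 0.0735 for Col11a1 and 0.131 for Col12a1), and Col12a1 was lost in 7 of 20 fits without 1 array. This comparison shares the HFD-vehicle arrays with the IMQ comparison in HFD-fed mice, where the same 2 genes gave the largest falls.

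In IMQ-treated skin the diet changed no collagen in the limma test. The share of all genes called was 0 in each direction, and groups lay apart for 1.67% of all genes and for none of the collagens. At an unadjusted p below 0.05 there were 2 collagens, against 10.3% of all genes, and none was called under any of 8 alternatives. Col11a1 differed by -0.08 ± 0.23, with a 95% interval from -0.55 to 0.39, and Col12a1 by 0.49 ± 0.29, with an interval from -0.12 to 1.10. For Col1a1 the interval ran from -0.23 to 0.74. The smallest adjusted p among collagens was 0.393 (Col13a1).

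No collagen passed for the interaction of diet and IMQ, for which 0.473% of all genes were higher and 0.189% lower. At an unadjusted p below 0.05 there were 5 collagens, all negative, against 15.9% of all genes. A fall on 1 diet and not on the other was thus not shown to differ between the diets for any collagen in this fit.

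Hair markers moved with Col11a1 and Col12a1. The 11 hair inner root sheath and shaft markers, keratins and other proteins of a growing hair, had list means of 5.27, 5.29, 2.98, 4.56 and 4.32 in CD-vehicle and 7.68, 7.24, 9.91, 6.81 and 6.42 in HFD-vehicle. In the IMQ groups they ran from 2.89 to 3.25 (CD-IMQ) and from 2.70 to 4.12 (HFD-IMQ), with no gene mean above 3.82 in CD-IMQ or 3.91 in HFD-IMQ. Of the 11 markers 10 were higher with HFD in vehicle skin, with Krt71 at 4.34 ± 0.75 and Krt27 at 3.94 ± 0.53, and 10 fell with IMQ in HFD-fed mice. In CD-fed mice 5 of the 11 fell with IMQ and all 11 changes were below 0, while neither Col11a1 nor Col12a1 was called there. Of 9 dermal papilla and dermal sheath markers Lef1 (1.09 ± 0.27) and Hhip (0.76 ± 0.20) rose with the diet, and 3 fell with IMQ in HFD-fed mice. CD-vehicle 3, the array with the lowest hair list mean of its group, also had the lowest Col11a1 and Col12a1 of its group, while HFD-vehicle 3, the array with the highest, had the lowest Col11a1 and the highest Col12a1 of its group. The part of hair in the values of both genes was not tested.

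**Figure D3:**
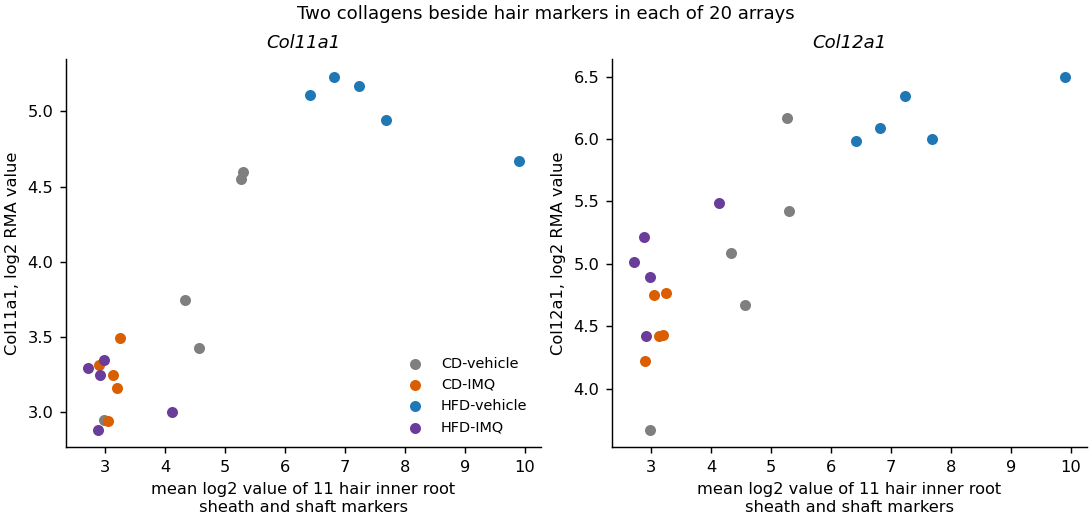
Log2 RMA value of Col11a1 (left) and Col12a1 (right) against the mean log2 value of 11 hair inner root sheath and shaft markers, 1 point per array, coloured by group. HFD-vehicle arrays lie to the right at hair list means from 6.42 to 9.91, and IMQ arrays to the left at 2.70 to 4.12.

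The genes that make and hold collagen were followed by lists, to be read beside the shares of all genes, 7.02% lower and 3.91% higher in CD-fed and 2.24% lower and 3.65% higher in HFD-fed mice. Of 20 genes for procollagen folding and secretion 5 (25.0%) fell in CD-fed and 3 (15.0%) in HFD-fed mice. Mia3, which loads procollagen into transport carriers, fell by 0.70 ± 0.14 in CD-fed mice. Tmem38b, an ion channel of the endoplasmic reticulum, fell there by 0.67 ± 0.11, and its interaction term of 0.907 ± 0.155 passed (adjusted p = 0.00916). Fkbp14, a prolyl isomerase of the endoplasmic reticulum, fell by 0.62 ± 0.13 and 0.43 ± 0.13. Serpinh1, the procollagen chaperone HSP47, fell by 0.50 ± 0.14 and 0.56 ± 0.14, and Creb3l1, a transcription factor, by 0.55 ± 0.16 in HFD-fed mice. Among 13 genes for processing and crosslinking 3 (23.1%) fell in CD-fed and 2 (15.4%) in HFD-fed mice. Bmp1, the protease that trims the C-propeptide, fell by 0.53 ± 0.12 and 0.46 ± 0.12, and Sparc, a collagen-binding matricellular protein, fell by 0.40 ± 0.11 and 0.67 ± 0.11. Pcolce2, an enhancer of that protease, fell by 1.09 ± 0.16 in CD-fed mice.

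Of 14 proteoglycans and glycoproteins that bind fibrils 6 (42.9%) fell in CD-fed mice and 1 (7.14%) in HFD-fed mice, with Omd in both (-0.83 ± 0.22 and -0.76 ± 0.22). The small proteoglycan Aspn (-0.78 ± 0.21) and the matricellular Thbs2 (-0.61 ± 0.16) fell in CD-fed mice. For Thbs2 the interaction term of 1.005 ± 0.23 passed (adjusted p = 0.0436). Of 23 partners of collagen in the basement membrane 10 (43.5%) fell in CD-fed mice, while in HFD-fed mice 7 (30.4%) fell and Itga6 rose. Lamc1, the gamma chain common to most laminins, fell by 1.04 ± 0.16 and 0.66 ± 0.16. Lama2, the laminin chain of muscle and nerve basement membranes, fell by 1.28 ± 0.20 in CD-fed mice, and Dst, which links hemidesmosomes to keratins, by 1.06 ± 0.13. In HFD-fed mice Fermt1, an integrin activator of keratinocytes, fell by 0.76 ± 0.20 and Lama5, an epithelial and vascular laminin chain, by 0.68 ± 0.17. Averaged over both diets 13 of the 23 fell and 2 rose.

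Of 11 collagen receptors and uptake genes 5 (45.5%) fell in CD-fed mice, led by Ddr2, a receptor kinase for fibrillar collagen (-0.9999 ± 0.18), Antxr2 (-0.59 ± 0.15) and the integrin chain Itga2 (-0.58 ± 0.13). In HFD-fed mice 1 rose, Lair1, an inhibitory collagen receptor of leukocytes (1.30 ± 0.18). Among 16 proteases and inhibitors the directions were mixed, with 2 higher (12.5%) and 4 lower (25.0%) in CD-fed mice and 3 higher (18.8%) and 1 lower (6.25%) in HFD-fed mice. Timp1, an inhibitor of matrix metalloproteases, rose by 1.39 ± 0.18 and 0.61 ± 0.18. Mmp8, a collagenase of neutrophils, rose by 0.91 ± 0.16 and 1.11 ± 0.16, and Mmp3, stromelysin, by 1.06 ± 0.20 in HFD-fed mice. Fap, a protease of activated fibroblasts, fell by 0.94 ± 0.18 in CD-fed mice, and Timp3, a matrix-bound inhibitor, fell by 0.96 ± 0.17 and 0.60 ± 0.17.

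Of 16 TGF-beta and matrix regulators 8 (50%) fell in CD-fed mice and Ltbp2 rose, while in HFD-fed mice 1 fell and 1 rose (6.25% each). In HFD-fed mice Tgfb1, the cytokine itself, rose by 0.78 ± 0.15 and Postn, a matricellular protein of the dermis, fell by 0.76 ± 0.14, after 0.65 ± 0.14 in CD-fed mice. Ccn1, an immediate-early matricellular protein, fell by 3.52 ± 0.30 in CD-fed mice, the co-receptor Tgfbr3 by 0.82 ± 0.16 and Skil, a repressor of the pathway, by 0.69 ± 0.20. Ccn1 also changed by -2.99 ± 0.30 from CD-vehicle to HFD-vehicle, and its interaction term was 3.36 ± 0.42.

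**Figure D4:**
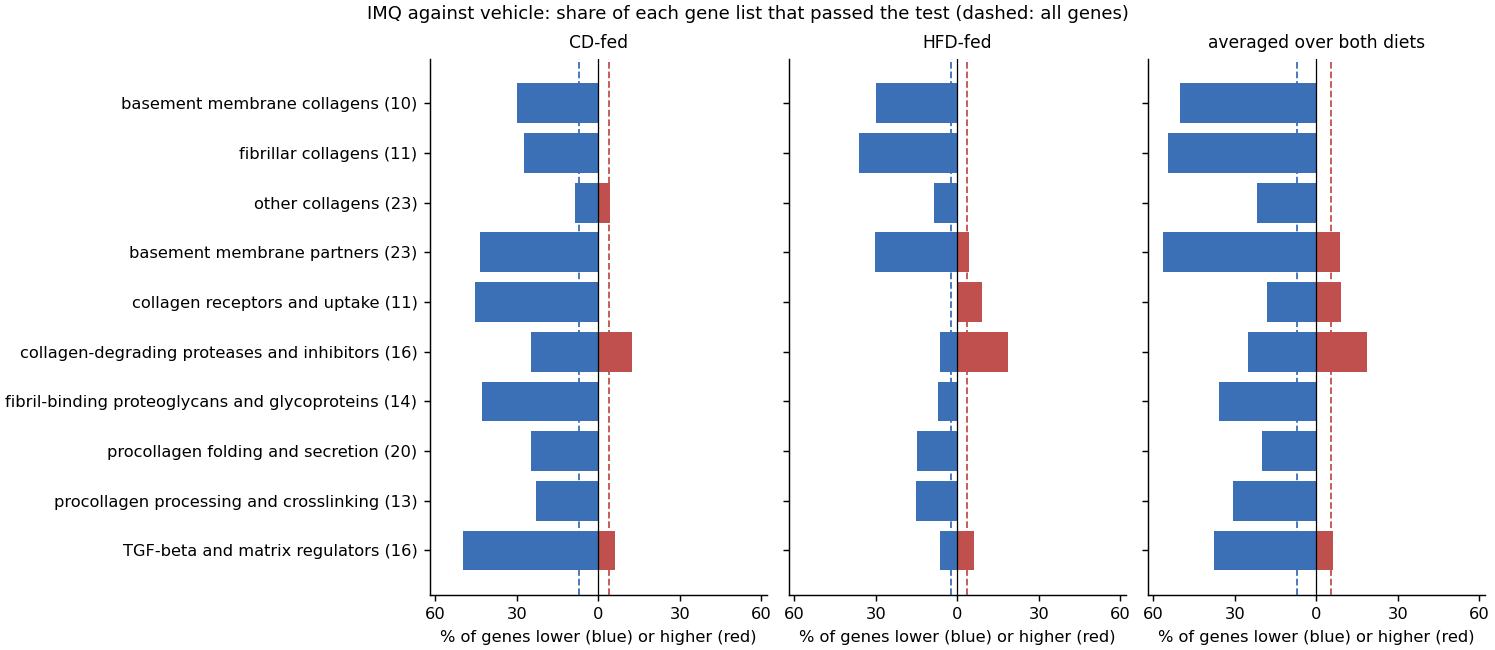
Share of each gene list that passed the test lower (blue, left) or higher (red, right) in IMQ skin, for CD-fed mice, HFD-fed mice and the average over both diets, with the number of genes in brackets. Dashed lines mark the share of all 22180 genes. Fibrillar collagens stand at 54.5% lower in the average over both diets, against 7.06% of all genes.

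Markers of fibroblasts, the main source of dermal collagen, moved with the collagens in CD-fed mice. In HFD-fed mice 9 of the 15 changes were below 0 and 6 above, and the list means overlapped. Of 15 fibroblast markers that are not collagens 7 fell and Crabp1 rose (0.80 ± 0.25) in CD-fed mice, and 4 fell and 1 rose in HFD-fed mice. Dpp4 fell by 1.01 ± 0.15 in CD-fed mice, Mfap5, a microfibril protein, by 0.80 ± 0.15 and 0.77 ± 0.15, and Vim rose in HFD-fed mice by 0.42 ± 0.11. The list mean ran from 6.52 to 6.71 in CD-vehicle and from 6.16 to 6.38 in CD-IMQ, with no overlap, and from 6.26 to 6.69 in HFD-vehicle and from 6.22 to 6.64 in HFD-IMQ. Over the same groups the mean of the fibrillar collagens ran from 6.08 to 6.66, 5.92 to 6.19, 6.28 to 6.88 and 5.77 to 6.27. Markers of leukocytes on both diets, and of the upper epidermis in CD-fed mice, moved the other way. Macrophage list means were 8.22 to 8.53 in CD-vehicle against 8.61 to 8.98 in CD-IMQ, neutrophil list means 2.70 to 3.35 against 4.90 to 5.41, and suprabasal keratinocyte list means 7.45 to 8.68 against 9.25 to 9.77. Of the 7 neutrophil markers 4 rose in CD-fed and 5 in HFD-fed mice, against 3.91% and 3.65% of all genes. Their list mean leans on S100a8 (3.28 in CD-vehicle, 9.41 in CD-IMQ) and S100a9 (3.95 and 9.52). Mpo and Ly6g were near background in all 4 groups (1.58 to 2.54). In HFD-fed mice macrophage list means were 7.73 to 8.39 against 8.78 to 9.29, and neutrophil list means 3.19 to 3.72 against 5.14 to 5.66. Suprabasal keratinocyte list means overlapped there (8.79 to 9.37 against 9.28 to 9.71), and 1 of 7 markers, Krt1, rose, against 6 of 7 in CD-fed mice. Skeletal muscle markers had 9 of 10 changes below 0 on each diet, with medians of -0.58 and -0.51, and Mb fell in both. Averaged over both diets 4 of the 10 muscle markers fell and Myh2 rose. Muscle list means ran from 7.29 to 8.46 against 7.03 to 8.19 in CD-fed mice and from 7.40 to 7.91 against 6.11 to 7.73 in HFD-fed mice. Adipocyte markers fell for 2 of 9 in CD-fed and 1 of 9 in HFD-fed mice, smooth muscle and myofibroblast markers for 1 and 2 of 9, and none of 5 Schwann cell markers passed. The part of these shifts in the collagen values was not tested.

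Some arrays were low or high for many collagens of their group. Over the 30 collagens above background in at least 1 group, HFD-vehicle 3 was the lowest array of its group for 19 and HFD-IMQ 4 for 15, in both cases including Col1a1, Col1a2, Col3a1, Col5a1, Col5a2, Col6a1, Col6a2 and Col6a3. Beside this, HFD-vehicle 3 had the highest hair list mean (9.91) and the lowest fibroblast list mean (6.26) of its group, and HFD-IMQ 4 the highest adipocyte list mean (8.85, the others 6.83 to 7.70). In CD-vehicle some fibrillar and some basement membrane genes split. CD-vehicle 4 was lowest for 15 collagens, among them Col1a1, Col1a2, Col3a1, Col5a1 and Col5a2, but also the type IV gene Col4a5. It was highest for Col4a1, Col4a2, Col15a1, Col17a1 and the fibrillar Col5a3. CD-vehicle 1 was highest for 15, among them the same 5 fibrillar genes, and lowest for Col4a2, Col15a1, Col9a3 and the fibrillar Col11a2. Without HFD-vehicle 3 the count of collagens that fell with IMQ in HFD-fed mice was 13 in place of 9, and without HFD-IMQ 4 it was 8. Without CD-IMQ 4 the count in CD-fed mice was 6 in place of 8. Without CD-vehicle 4 it was 10.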

How the data were processed

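Whole-skin RNA of 20 mice was hybridised to 1 Affymetrix array each. The deposited values are log2 intensities made by the authors with RMA and affy, per the submitters' processing notes, with versions not given in the sources used here. RMA subtracts background and quantile-normalizes all arrays together, so small shifts of low genes are compressed. Of the features 23521 carried 1 gene symbol, and the brightest one per gene gave 22180 genes. Groups came from the labels, 5 arrays each. One group-means model was fitted in limma 3.58.1 (R 4.3.3), with Benjamini-Hochberg adjusted p below 0.05. The fit was tested on simulated data. No batch is labelled, and array number limits the precision. Replicate numbers were not used as pairs in the main fit. Of 30 same-number pairs 4 correlated above 0.1, the highest at 0.32. Pairs with different numbers were not compared, so pairing is not excluded.

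Values in every array are given for called members that changed by at least 1 log2 unit and for Col1a1, Col1a2, Col3a1, Col4a1, Col4a2, Col7a1 and Col17a1. Of each pathway list the 3 called genes with the largest change in each IMQ comparison are named, with their values on both diets where called; of marker lists some of these. Crabp1, Itga6, Ltbp2 and Vim, each the 1 gene of its list higher in a comparison, were named outside this rule after their values were seen. The same holds for Mpo and Ly6g, neutrophil markers near background. The members and lists were chosen with earlier results of these data known.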

Additional observations from a re-analysis of the deposited data

Results flagged for a closer look

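In 9 of 176 groups of 5 arrays, 1 array lay far from the other 4 of its group by Dixon's criterion, and chance flags about 1 in 20 groups. CD-IMQ 4 was the high array for 4 genes: Col11a2 at 4.081 (others 3.673 to 3.762), Col13a1 at 4.324 (others 3.85 to 3.976), Col19a1 at 2.933 (others 2.302 to 2.469) and Col27a1 at 4.391 (others 3.794 to 3.899). That array also had the highest median over the tested genes (3.647, the other arrays 3.541 to 3.619), which set the limit for near background. CD-IMQ 1 was high for Col5a2 at 6.938, where the others lay between 6.459 and 6.519. CD-vehicle 3 was high for Col6a5 at 3.378, against 2.272 to 2.406. HFD-vehicle 5 was high for Col4a3 at 3.676, against 3.147 to 3.277, and HFD-IMQ 3 for Col8a2 at 3.579, against 3.077 to 3.218. HFD-vehicle 3 was low for Col25a1 at 2.353, against 2.884 to 2.966. Of these genes only Col5a2 was called in a comparison.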

How the results depend on the processing

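For 53 collagen results called in at least 1 fit, 1049 values under alternatives were counted. A value was counted only where the main fit or that alternative called it. Of these, 894 kept direction and side of the threshold, 97 lost and 58 gained a call. None changed direction, but counting only called values made such a change unlikely in advance. The count of collagens lower with IMQ was 7 to 10 in CD-fed mice under 8 alternatives (8 in the report), 6 to 13 in HFD-fed mice (9 in the report) and 15 to 17 averaged over both diets (16 in the report). In HFD-fed mice it was 13 with array weights or the filter on dim genes and 6 when only the groups compared were fitted. The count higher in CD-fed mice was 0 with only the groups compared and 2 after quantile normalization. The count raised by the diet in vehicle skin was 0 with only the groups compared and 1 with a trended robust variance. For the interaction 1 collagen was lower with array weights and with the filter on dim genes. Averaged over both diets 1 collagen was higher with array weights, quantile normalization or a trended robust variance, and 2 with the filter on dim genes. The causes were not tested, apart from fewer genes tested under the filter (11697) and fewer arrays where only the groups compared were fitted.

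Leaving out 1 array gave 5 to 10 collagens lower in CD-fed mice, with 5 without CD-IMQ 3, and 0 to 1 higher, with 0 without CD-IMQ 4, CD-IMQ 5 or CD-vehicle 2, 3 or 5. It gave 6 to 13 lower in HFD-fed mice, 14 to 18 lower and 0 to 1 higher averaged over both diets, 0 to 1 for the interaction and 1 to 2 raised by the diet in vehicle skin. The value 1 for the average came without CD-IMQ 1, CD-IMQ 2, CD-vehicle 4, HFD-IMQ 4 or HFD-vehicle 3, and 1 for the diet without CD-vehicle 3, 4 or 5 or HFD-vehicle 1, 2, 3 or 4. With the replicate block 9 collagens were lower in CD-fed mice, 10 in HFD-fed mice and 15 averaged over both diets. Genes near background limit what these arrays can show.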

Other observations

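A second feature with the same single symbol was present for 3 members, Col1a2, Col5a1 and Col6a1. The second feature of Col1a2 (mean 8.53 over all arrays) fell by 0.62 ± 0.18 with IMQ in CD-fed mice (adjusted p = 0.0259, limma) and by 1.005 ± 0.18 in HFD-fed mice (adjusted p = 0.000783). The second feature of Col5a1, at a mean of 3.64, changed by -0.04 ± 0.13 and -0.19 ± 0.13 and was not called. The second feature of Col6a1, at a mean of 4.35, changed by -0.17 ± 0.16 and -0.24 ± 0.16 and was not called.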
